A study of Mus musculus with 3 samples.

Results

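Txnip and 9 genes of glucose sensing, glucose uptake and glycolysis were followed in sensory ganglion cells exposed to semaphorin 3E. The 10 genes (Txnip, Arrdc4, Mlxipl, Slc2a1, Slc2a3, Hk1, Hk2, Pfkp, Pgk1 and Ldha) were taken by their symbols from 30142 genes named on the array, with the brightest probe set standing for a gene that had several. Txnip was picked because its value was lower with semaphorin 3E and midway once a blocking antibody was added, so its own differences are a description of that choice and support nothing. The other 9 genes were picked by their role, with earlier results of these data known.

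The cells were dissociated from dorsal root ganglia of male ICR mice, an outbred strain, aged 8 to 10 weeks, and RNA was taken after 72 hours in culture. The control group had medium of DMEM and the B27 supplement alone. The SEMA3E group had the same medium with 1 µg/ml recombinant SEMA3E, a secreted guidance protein that signals through plexin D1, and the group with blocking IgG had that SEMA3E together with 1 µg/ml of an antibody against it. No group had the IgG without SEMA3E or an unrelated IgG. Each medium has 1 array, so a difference below is between 2 arrays, with no replicate check, no error and no test, and precision is limited by there being so few arrays. How many animals gave cells to a culture is not given in the sources used here. Cells in such cultures include satellite glia, Schwann cells, fibroblasts and macrophages beside neurons, and in a mixed culture fewer cells of a type and less RNA per cell cannot be told apart.

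TXNIP is an alpha-arrestin that binds thioredoxin and limits glucose entry by taking glucose transporters off the cell surface. Its gene is switched on when sugar phosphates build up, by MondoA (Mlxip) and ChREBP (Mlxipl), factors that act with their partner MLX at paired E-boxes called carbohydrate response elements. ARRDC4 is the closest relative of TXNIP and a known target of the same factors. GLUT1 (Slc2a1) and GLUT3 (Slc2a3) carry glucose into glia and neurons, hexokinases trap it as glucose 6-phosphate, phosphofructokinase commits it to glycolysis, phosphoglycerate kinase makes ATP from it, and lactate dehydrogenase turns the end product pyruvate into lactate.

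Promoters of Txnip and Arrdc4 are shown because these genes are known targets of the same sugar-sensing factors. Each is the stretch of 250 bases before the gene's start in RefSeq (GRCm38.p6), 5′ to 3′ on the gene's strand, at chr3:96557707-96557956 (plus strand) for Txnip and chr7:68749239-68749488 (minus strand) for Arrdc4. Capitals mark a pair of 6-letter sites of the form CACGNG with 5 bases between them in Txnip and the single CACGTG in Arrdc4.
Txnip: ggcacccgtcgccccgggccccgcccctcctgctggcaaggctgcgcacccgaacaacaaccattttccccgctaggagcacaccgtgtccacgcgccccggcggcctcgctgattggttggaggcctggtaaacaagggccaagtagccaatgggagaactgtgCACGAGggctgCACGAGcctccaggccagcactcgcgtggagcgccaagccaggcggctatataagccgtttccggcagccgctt
Arrdc4: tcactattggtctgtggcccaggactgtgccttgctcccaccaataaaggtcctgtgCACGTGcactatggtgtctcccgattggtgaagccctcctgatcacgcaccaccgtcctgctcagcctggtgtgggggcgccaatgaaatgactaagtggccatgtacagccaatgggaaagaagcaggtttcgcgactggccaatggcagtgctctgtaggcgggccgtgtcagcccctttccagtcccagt
Both sites of the Txnip pair read CACGAG, and the pair lies 85 to 69 bases before the start. Searched on both strands, a pair of this form and spacing was found in 15 of 32851 RefSeq windows of this length (0.0457%), which belong to 14 genes, and of the 9 members with a window only Txnip had it. This spelling was chosen after the Txnip sequence was seen, as were the NF-Y, forkhead and hypoxia letters given below, which were also searched on both strands. The strict form, CACGTG at both sites, was found in 0 of the 32851 windows. The single E-box CACGTG, which reads the same on both strands, was found in 6.02% of windows, belonging to 1854 of 27025 genes. A gene was counted if any of its windows had the letters. Of the 9 members 3 had CACGTG (Arrdc4, Mlxipl in 1 of its windows, and Ldha in 1 of its windows). CCAAT, the letters of the NF-Y box, was found in 33.8% of windows, belonging to 10133 of the 27025 genes. Of the 9 members 6 had CCAAT (Txnip, Arrdc4, Mlxipl in 1 of its windows, Hk2, Pfkp and Pgk1). It occurred at 2 places in the Txnip window and at 6 in that of Arrdc4, numbers that were not compared with all windows. TTGTTTAC, a forkhead factor's preferred letters, stood 121 to 114 bases before the Txnip start and in 1.07% of windows. ACGTG, the core of the hypoxia response element, which also lies inside CACGTG, was found in 16.6% of windows, belonging to 4998 of the 27025 genes. Of the 9 members 6 had ACGTG (Arrdc4, Mlxipl in 1 of its windows, Slc2a1, Hk2, Pgk1, and Ldha in 1 of its windows). Slc2a3 had no entry. Such matches describe letters and do not show that a factor binds. Their part in the array values of Txnip and Arrdc4 was not tested.

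Of the 14 genes whose window held the pair, 8 were measured above background. Of these 8, which include Txnip itself, 6 held an identical value on all 3 arrays, among them Fnip1, Nfkb2 and Rbbp4, a share close to the 74.9% of all genes above background. The other 2 were Txnip and Man2b2, a mannosidase gene, whose log2 difference between SEMA3E and control was −0.0028.

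The arrays as a whole were nearly the same. Background was set at 5.48 on the log2(intensity + 1) scale (43.7 intensity units), the 95th percentile of 492 vomeronasal receptor genes, which sensory ganglia are taken not to express, and 17653 genes lay at or above it. Of these, 74.9% held exactly the same value on all 3 arrays, and the median difference was 0 in every comparison. An identical value does not show equal RNA. Differences past a ratio of 5 to 4 (0.32 on the log2 scale) are counted below as the larger ones.

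Txnip had 10141 intensity units in control medium, 5667 with SEMA3E and 7570 with SEMA3E and blocking IgG (probe set TC0300000949.mm.1). The value was highest in control medium, lowest with SEMA3E and between the 2 with the antibody. The SEMA3E array thus held 55.9% of the control value (log2 difference −0.84) and the array with IgG 74.7% (−0.42), while IgG against SEMA3E alone gave 0.42. On the log2 scale 50.2% of the gap to control was left with the antibody, and on the linear scale 57.5%.

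Against all genes, Txnip stood far out in the first comparison. It was the eighth lowest of the 17653 genes in SEMA3E against control. The 7 below it were Mmp13, a collagenase gene, 4 microRNA genes, a RIKEN clone gene and a predicted gene, and past a ratio of 5 to 4 there were 70 lower genes (0.397%). In IgG against SEMA3E alone Txnip was number 38 from the top, where 84 genes (0.476%) were higher past that ratio, and in IgG against control it was number 55 from the bottom, where 96 (0.544%) were lower. These places follow from how Txnip was picked.

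Arrdc4, the relative of Txnip, had 351.7 units (8.46 on the log2 scale) on each of the 3 arrays, and so did not share its shape. Mlxipl, which encodes the sugar sensor ChREBP, had 20.3 units on each array (4.42 on the log2 scale) and lay below the background of 5.48, so it gives no information on a difference. MondoA is the other sensor, and its gene Mlxip, named for that role, had 293.9 units in all 3 media. Their shared partner Mlx had 1075 units in control medium and 1055 on both SEMA3E arrays, a log2 difference of −0.03.

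The glucose transporter genes differed slightly. Slc2a1 had 10029 units in control medium, 9310 with SEMA3E and 10029 with IgG. Only the SEMA3E array was lower, at 92.8% of control (log2 difference −0.11), and the array with IgG held exactly the control value. Slc2a3 had 1498 units in control medium, 1470 with SEMA3E and 1498 with IgG, a log2 difference of −0.03 in the same shape, though after quantile normalization the array with IgG stood at −0.0079 from SEMA3E alone. Lower on the SEMA3E array with the control value restored on the array with IgG was the shape of 649 of the 17653 genes (3.68%). The SEMA3E array is shared by the comparison with control and the comparison with IgG, so the 2 differences are not independent.

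The kinase genes at the entry to glycolysis were identical in all 3 media. Hk1, the main hexokinase of nervous tissue, had 167.5 units on each array and Hk2, the inducible hexokinase, 61.7 units, near background. Pfkp, the platelet-type phosphofructokinase, had 1596 units and Ldha, the lactate dehydrogenase subunit of glycolytic cells, 619.5 units on every array. Together with Arrdc4 these made 5 of the 9 members above background with an identical value on all 3 arrays (55.6%). Among all genes above background that share was 74.9%.

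Pgk1, phosphoglycerate kinase 1, gave 2 answers. Its brightest probe set (TC1200001415.mm.1) had 6741 units in control medium, 7120 with SEMA3E and 6741 with IgG, a log2 difference of 0.08 on the SEMA3E array alone. Its other probe set (TC0X00001071.mm.1) had 4800 units on each of the 3 arrays. The identifier of the brighter one places it on chromosome 12, where RefSeq lists the pseudogene Pgk1-rs7, while RefSeq has Pgk1 itself on chromosome X. Signal of the gene and of its near-identical copies cannot be told apart here, so the difference of 0.08 is uncertain as a value of Pgk1.

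**Figure D1:**
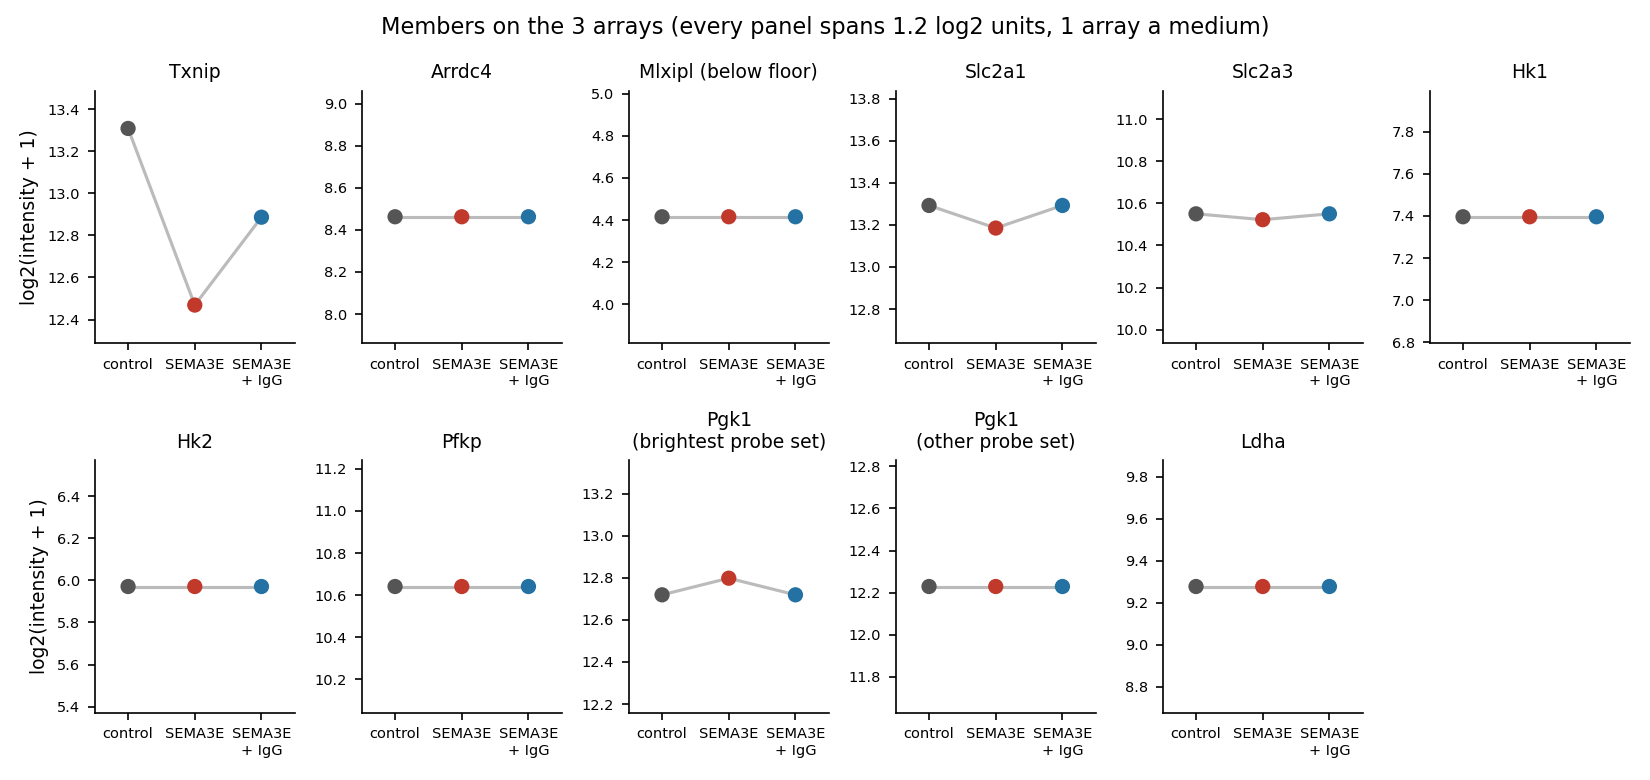
Each panel plots log2(intensity + 1) of 1 probe set on the control, SEMA3E and SEMA3E with IgG arrays, 1 array a medium, and every vertical axis covers the same span. Txnip runs from 13.31 to 12.47 and back to 12.89, Slc2a1 dips by 0.11, and Arrdc4, Hk1, Hk2, Pfkp and Ldha lie on 1 level.

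Among the 9 members above background, 3 were lower with SEMA3E than in control medium (Txnip, Slc2a1 and Slc2a3), 1 was higher (Pgk1, by its brighter probe set) and 5 were identical, against 12.3%, 6.21% and 81.4% of the 17653 genes. With IgG against SEMA3E alone the counts were 1 lower (Pgk1), 3 higher (Txnip, Slc2a1 and Slc2a3) and 5 identical, against 10.3%, 10.2% and 79.5%. With IgG against control only Txnip differed, where 11.4% of all genes were lower, 7.59% higher and 81% identical. Txnip was picked for these directions, so nothing is read from its place in the counts, and of the other 8 members 2 were lower with SEMA3E, 1 higher and 5 identical. The median of the 9 was 0 in each comparison, as over all genes. Differences were commoner in bright genes: among the 4413 genes with a mean log2 value of at least 9.82, which include Txnip, Slc2a1, Slc2a3, Pfkp and Pgk1, 25.9% were lower with SEMA3E and 6% higher, so a bright gene with a small lower value is ordinary here. Txnip was the single member past a ratio of 5 to 4 in each comparison, and in SEMA3E against control it alone passed 1.5-fold, as 17 lower genes (0.0963%) did.

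The shape of Txnip, lower with SEMA3E and partly back with the antibody, was shared in direction by 205 genes (1.16%). With steps past a ratio of 5 to 4 both down and up there were 25 genes (0.142%). Of these, 21 were microRNA, small nucleolar, predicted or similar genes, 6 of them microRNA genes. The 4 others were Txnip, the histone H2A genes H2ac10 and Hist1h2aj, and Hmgn5, a nucleosome-binding protein gene. H2ac10 (62748, 47220 and 64031 units in control, SEMA3E and IgG), Hist1h2aj (139706, 108643 and 142116) and Hmgn5 (137.3, 108.9 and 145.4) all ended slightly above control with the antibody. Txnip remained below control, which is how it was picked. So did 6 of the 21 others, among them 1700054O19Rik (−0.22 from control with IgG), Mir411 (−0.19) and Mir99a (−1.19). The 2 histone genes belong to a family of near-identical copies whose probes can read one another.

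By the distance between log2 differences from control on both SEMA3E arrays (3 arrays, 1 a medium), the genes nearest to Txnip were Sostdc1 (distance 0.35), Neto1 (0.37), H3c7 (0.38), Fxyd7 (0.39), Cited2 (0.42), Gpr37l1 (0.44), Pvalb (0.46) and Cdr1 (0.47). Predicted, microRNA, RIKEN clone and similar genes were left out of this ranking, and 15 of these lay nearer than Cdr1 and 5 nearer than Sostdc1, the closest being 1700054O19Rik (0.21). Sostdc1, an antagonist of BMP and Wnt ligands, had 2531, 1550 and 1510 units in control, SEMA3E and IgG medium. Neto1, an auxiliary protein of glutamate receptors, had 2025, 1454 and 1454 units. H3c7 had 66.9, 48.3 and 48.3 units, near the background of 43.7. Cited2, a partner of the acetyltransferases CBP and EP300, had 2528, 1882 and 1938 units, and Pvalb, the calcium buffer parvalbumin, had 367, 282.3 and 280.1. Between IgG and SEMA3E alone, the 8 differed by −0.18 (Gpr37l1) to 0.04 (Cited2), against 0.42 for Txnip, which was picked for that step. Of the genes left out, 1700054O19Rik gave 0.68 and Mir411 0.41. The 2 axes of this ranking share the control array, so they are not independent.

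**Figure D2:**
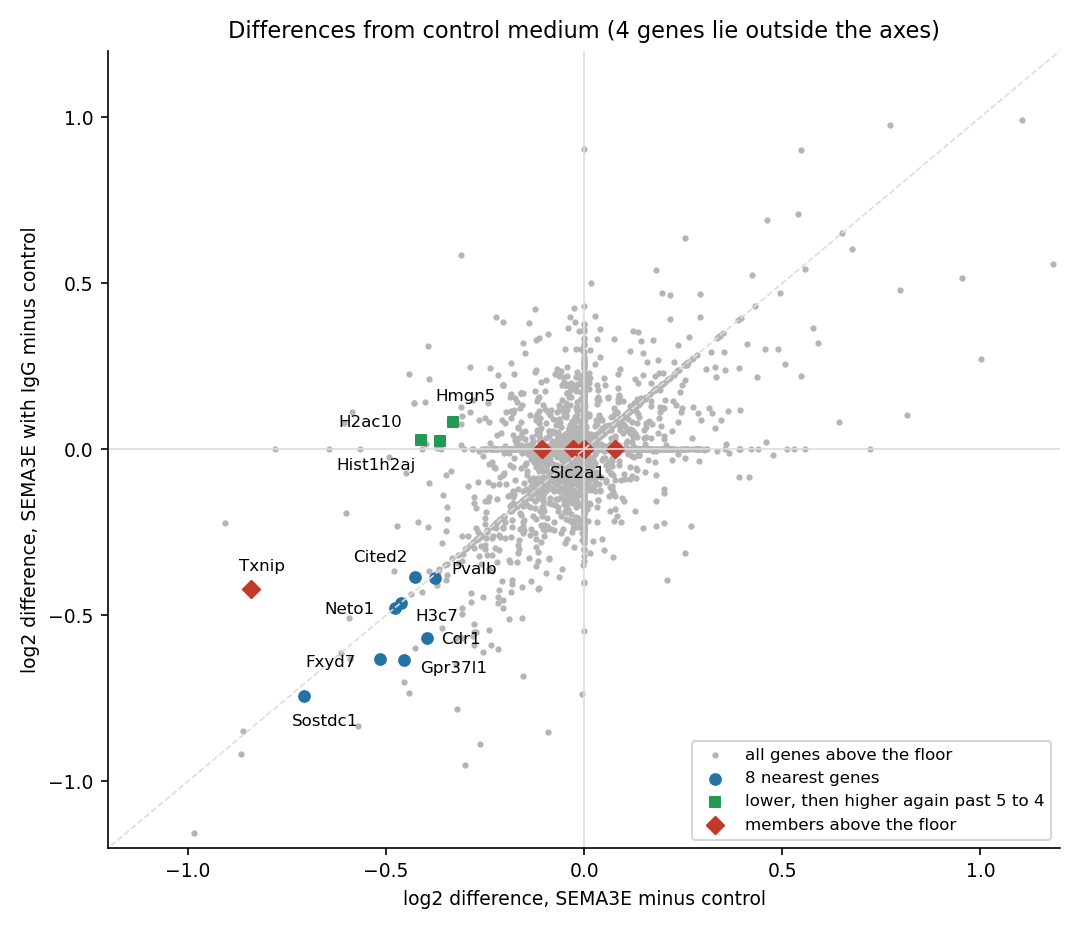
Each point is a gene above background, placed by its log2 difference between SEMA3E and control (horizontal) and between SEMA3E with IgG and control (vertical), and 4 genes lie beyond the axes. Txnip at −0.84 and −0.42 lies above the dashed line of equal differences, the 8 nearest genes (blue) lie on or close to that line, and H2ac10, Hist1h2aj and Hmgn5 (green) lie just above 0 on the vertical axis.

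Counts in the gene lists that follow stand against 12.3% lower and 6.21% higher of all genes with SEMA3E, 10.3% and 10.2% with IgG against SEMA3E alone, and 11.4% and 7.59% with IgG against control. Of 18 other glycolytic enzymes above background, 2 were lower with SEMA3E than in control medium, 0 higher and 16 identical, and none passed a ratio of 5 to 4. The lower ones were Pgam1, phosphoglycerate mutase (10774, 10489 and 10489 units in control, SEMA3E and IgG), and Ldhb, the other lactate dehydrogenase subunit (3081, 3012 and 3012). Tpi1, triosephosphate isomerase, was lower only with IgG (log2 difference −0.0081 from control). Gapdh, Pkm, Aldoa, Eno2, Pfkl and Pfkm, singled out for their place in the pathway, held 1 value each on all arrays, with Gapdh at 67253 units. The 3 measured genes of the enzymes that make and remove fructose 2,6-bisphosphate were identical too.

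Among genes above background, no other way of moving sugar or its products differed by much. All 7 other hexose transporter genes above background (12 more lay below it) were identical on the 3 arrays, as were 74.9% of all genes. Apart from Slc50a1 (1023 units) these were dim, from 50.4 units (Slc2a9) to 141.1 (Slc45a1), where background was 43.7. Of 9 genes of lactate and pyruvate transport, Emb, an ancillary protein of lactate carriers, had 32306 units in control medium and 31989 on both other arrays (−0.01), and 8 were identical. Of 12 genes of the pyruvate dehydrogenase complex and its kinases, Pdp2, a phosphatase of the complex, was higher with SEMA3E (0.04). With IgG against control Pdhb (−0.09) and Dld (−0.08), subunits of the complex, were lower.

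Cs, citrate synthase, repeated the order of the Txnip values. It had 8528 units in control medium, 7205 with SEMA3E and 7970 with IgG, log2 differences of −0.24 and −0.10 from control. It was the furthest from 0 of the 131 genes in the 10 lists of glucose metabolism in SEMA3E against control. Besides Cs only Gsk3a (−0.04, then −0.0017 from control with IgG), a glycogen synthase kinase, had that order in these lists, 2 of 131 (1.53%) against 1.16% of all genes. Of 24 genes of the tricarboxylic acid cycle, 2 were lower with SEMA3E (Cs and Ogdh, −0.05) and 0 higher, and with IgG against control 5 were lower and 0 higher, with Suclg1 at −0.09.

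Storage and side branches of glucose came next. Of 25 glycogen genes, 4 were lower with SEMA3E and 0 higher, and 4 were lower with IgG against control. Ppp1r3d, a subunit that brings protein phosphatase 1 to glycogen, had 72.5, 70.3 and 59.9 units (−0.27 for IgG against control, near background), and Gyg, the glycogenin that primes glycogen, had 1883, 1814 and 1728 (−0.12). The 10 pentose phosphate genes above background had 0 differences with SEMA3E, and 1 was lower with IgG (G6pd2, −0.06). Of 15 polyol and hexosamine genes, Akr1b8, an aldose reductase relative, was lower with SEMA3E (−0.10). With IgG against SEMA3E alone 3 of the 15 were lower, led by Gnpda2 (−0.09) and with Uap1 at −0.03. Of 8 genes of gluconeogenesis G6pc3 was lower on both SEMA3E arrays (−0.05).

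Over the 131 genes of these 10 lists, 11 (8.4%) were lower with SEMA3E than in control medium and 1 (0.763%) was higher, where all genes gave 12.3% and 6.21%. With IgG against control 20 (15.3%) were lower and 0 higher, where all genes gave 11.4% and 7.59%. None of the 131 passed a ratio of 5 to 4 in any comparison (0.731%, 0.782% and 0.884% of all genes did), and their median was 0 each time.

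**Figure D3:**
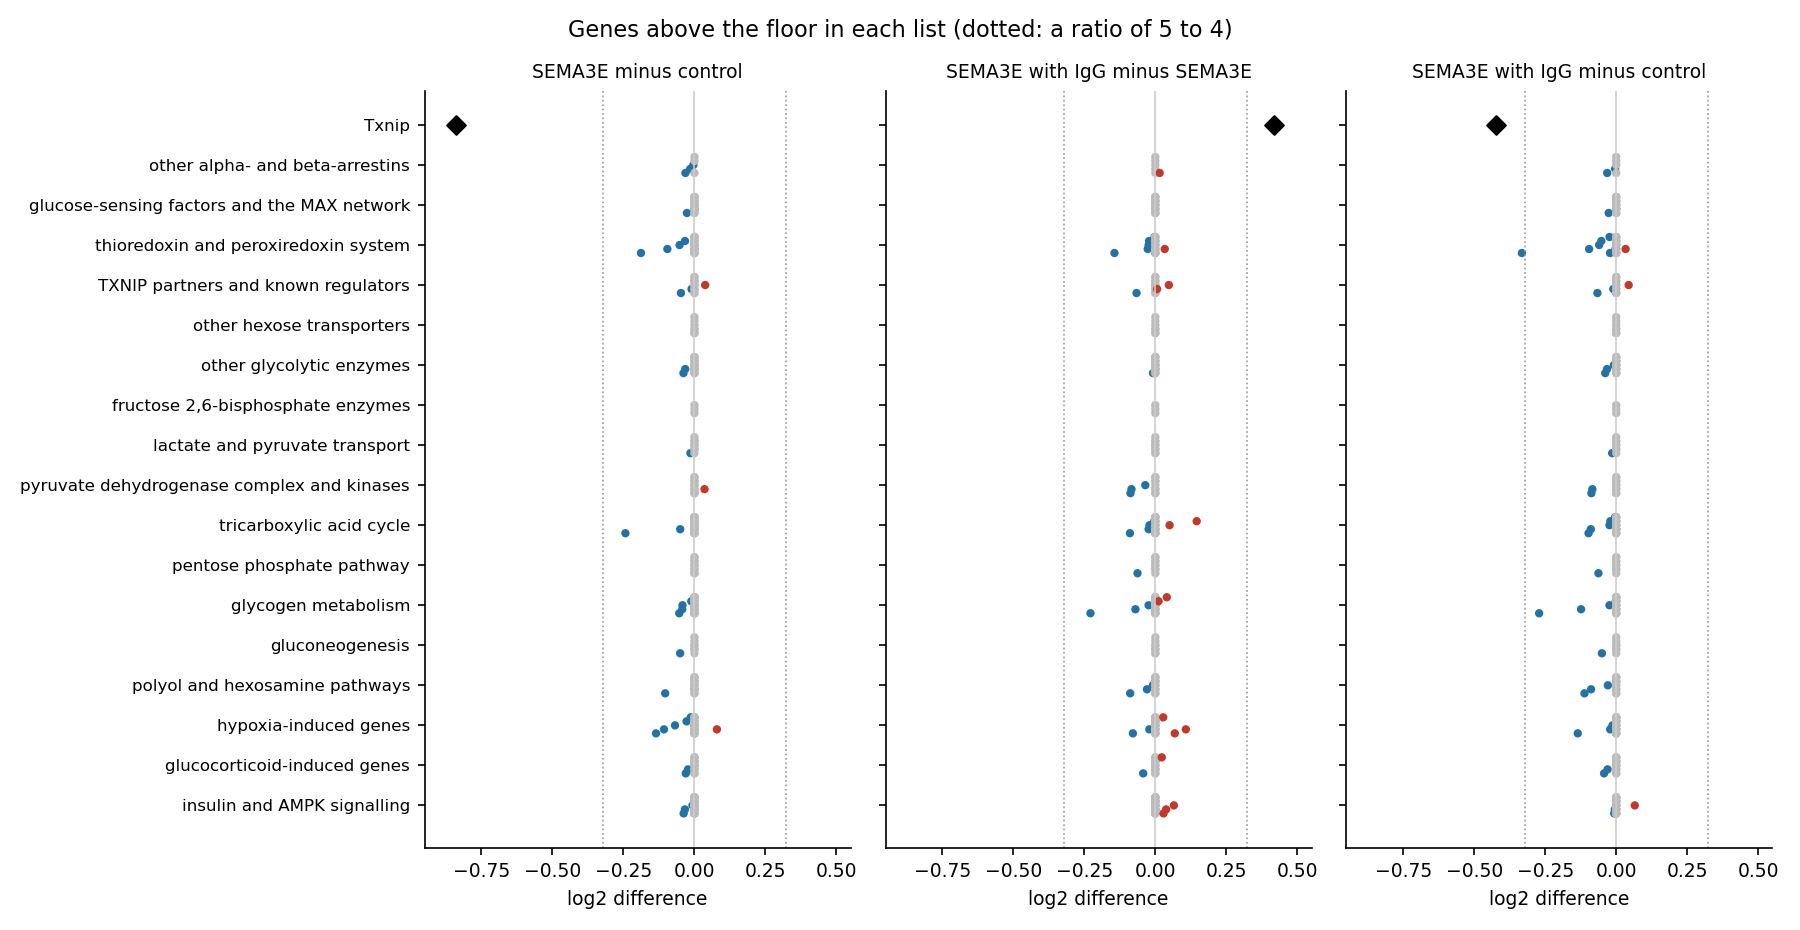
Each point is a gene above background in 1 of the 17 pathway lists, cell type markers not included, placed by its log2 difference in the comparison named over the panel, with lower genes in blue, higher in red and identical in grey, and with dotted lines at a ratio of 5 to 4. Txnip (black) lies outside the dotted lines in all 3 panels, and of these pathway genes only Glrx5 does so, at −0.33 for IgG against control.

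Of the partners and regulators of TXNIP, 9 of 13 held 1 value on all arrays, as did 14 of 22 thioredoxin and peroxiredoxin genes and 3 of 6 other arrestin genes, against 74.9% of all genes. Txn1, the thioredoxin that TXNIP binds (73898 units), and Itch, the ubiquitin ligase that marks TXNIP for degradation (637 units), both singled out for their role, were among them. Of 22 thioredoxin and peroxiredoxin system genes, 4 were lower with SEMA3E and 0 higher, and 7 were lower and 1 higher with IgG against control. Glrx5, a mitochondrial glutaredoxin of iron-sulfur assembly, had 12321 units in control medium, 10814 with SEMA3E and 9787 with IgG, and so lay further from control with the antibody (−0.19, then −0.33). Msrb1, a methionine sulfoxide reductase, was lower by the same amount on both SEMA3E arrays (−0.10), and so was Txndc12, an endoplasmic reticulum thioredoxin relative (−0.05). Glrx, the cytosolic glutaredoxin, was at −0.03 and then −0.06. Of 6 other arrestin genes 3 were lower with SEMA3E, where 12.3% of all genes were, by small amounts: Arrdc3 (−0.03), Arrb1 (−0.02) and Vps26b (−0.0038). Of 13 further partners and regulators 2 were lower and 1 higher, by the brightest probe set of each gene. Prkaa1, a catalytic subunit of AMPK, which controls TXNIP stability, had 6384, 6553 and 6581 units (0.04 with SEMA3E). Hdac1 was lower on the SEMA3E array alone (−0.05) by the brighter of its 2 probe sets. The other Hdac1 probe set gave a difference of 0 in each comparison, so −0.05 is uncertain as a value of Hdac1. Cops5, a COP9 signalosome subunit, was lower with IgG alone (−0.07).

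Genes of the hypoxia response, genes induced by glucocorticoids, components of insulin and AMPK signalling, and the sugar-sensing factors themselves were looked at next. The hypoxia list had 27 genes above background, which are induced by hypoxia or are components of the response to it. Of these, 5 are also members (Slc2a1, Slc2a3, Hk2, Pgk1 and Ldha). With SEMA3E 5 of the 27 were lower and 1 higher. The higher gene was Pgk1, by its uncertain brighter probe set, and the members Slc2a1 and Slc2a3 were among the lower ones. The furthest apart was Adm, adrenomedullin, with 520.9 units in control medium and 474.2 on both other arrays (−0.14), while Vegfa, singled out as a textbook target, held 1716 units throughout. Of 15 glucocorticoid-induced genes 2 were lower with SEMA3E, Cdkn1a (−0.02) and Mt2 (−0.03). Mt1, like Mt2 a metallothionein, was lower with IgG alone (−0.04), and Fkbp5 and Tsc22d3, singled out as textbook targets, were identical at 64 and 72.2 units, near background. Of 28 genes of insulin and AMPK signalling 3 were lower with SEMA3E, led by Irs2, the insulin receptor substrate (15048, 14656 and 15048 units; −0.04). Of the subunits of phosphoinositide 3-kinase, Pik3r1 was at −0.03 with SEMA3E and Pik3cb at 0.07 with IgG against control. Of 15 sugar-sensing and MAX network genes 2 were lower, Mlx and Max, the latter by less than 0.001 on the log2 scale, and Myc was identical. After median centring or quantile normalization that count of 2 was 1. Over all 17 lists, 251 genes without the members, 30 (12%) were lower with SEMA3E and 2 (0.797%) higher, against 12.3% and 6.21% of all genes.

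Markers of the cell types in the culture were set beside Txnip. Summed over the genes above background among those measured, pan-neuronal markers (21 of 21) stood at 98.7% of control with SEMA3E and 98.3% with IgG, and satellite glial markers (13 of 13) at 98.8% and 95.7%. Schwann cell markers (10 of 12) stood at 99.5% and 99.7%, fibroblast markers (12 of 14) at 100.03% and 103.4%, and macrophage markers (10 of 17) at 107.1% and 103.4%. Endothelial markers (9 of 12) stood at 99.1% on both SEMA3E arrays, and mural markers (10 of 12) at 104.6% with SEMA3E and 106.5% with IgG. Of the macrophage markers Csf1r, Itgam, Mrc1 and Ptprc lay below background, as did Vwf and Tek of endothelium. The sums rest on a few bright genes: Pmp22, identical on all arrays, made 85.3% of the Schwann cell sum in control medium, Postn 69.1% of that of fibroblasts, and Uchl1, also identical, 44.8% of that of neurons.

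Single markers ranged more widely and in both directions. Over the 85 marker entries above background, the level on the SEMA3E array ran from 67.3% of control (Ogn) to 119.2% (Mgp). On the array with IgG it ran from 56.1% (Ogn) to 128% (Gldn). Thy1, identical on all 3 arrays, was entered both as a pan-neuronal and as a fibroblast marker. Among the markers lower on both arrays, and lowest with IgG, were Ogn, a fibroblast proteoglycan gene (1536, 1034 and 861.4 units), Kcnj10, the potassium channel of satellite glia (398.7, 337.4 and 273), and Pmp2, a myelin protein gene (5868, 4744 and 3958). Among those higher on both were Gldn, the gliomedin of Schwann cells (5004, 5448 and 6403), Mgp, matrix Gla protein (3182, 3793 and 3796), and Tagln, a contractile protein gene of mural cells (4863, 5687 and 5679). Identical on all 3 arrays were 6 of 21 pan-neuronal, 6 of 13 satellite glial, 7 of 10 Schwann cell and 6 of 12 fibroblast markers. So were 4 of 10 macrophage, 8 of 9 endothelial and 7 of 10 mural markers, against 74.9% of all genes. Of the 85 entries, only Ogn passed a ratio of 5 to 4 in SEMA3E against control (−0.57), where 0.731% of all genes did. With IgG against control Ogn (−0.83), Kcnj10 (−0.54), Pmp2 (−0.57) and Gldn (0.36) passed it, where 0.884% of all genes did. On the SEMA3E array the satellite glial markers Fbln5 (−0.28) and Atp1b2 (−0.26) were lower and Fabp7 (0.13) higher, and Ngfr of Schwann cells was lower (−0.13). The lysozyme genes Lyz1 (0.20) and Lyz2 (0.19), near-identical copies whose probes can read one another, were higher and Cd68 (−0.08), also a macrophage marker, lower. Fn1 (−0.06) of fibroblasts and Cldn5 (−0.16) of endothelium were lower there. With IgG against control Postn, the periostin of fibroblasts, was at 0.07, and the mural markers Mcam and Des were at 0.11 and 0.03. Of the pan-neuronal markers 12 of 21 were lower with SEMA3E and 0 higher, where 12.3% of all genes were lower and 25.9% of the bright ones, with Tubb3 at −0.16 and Syp at −0.12. Map2 was at 0.08 with IgG against control. The part of these shifts in the Txnip value was not tested.

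**Figure D4:**
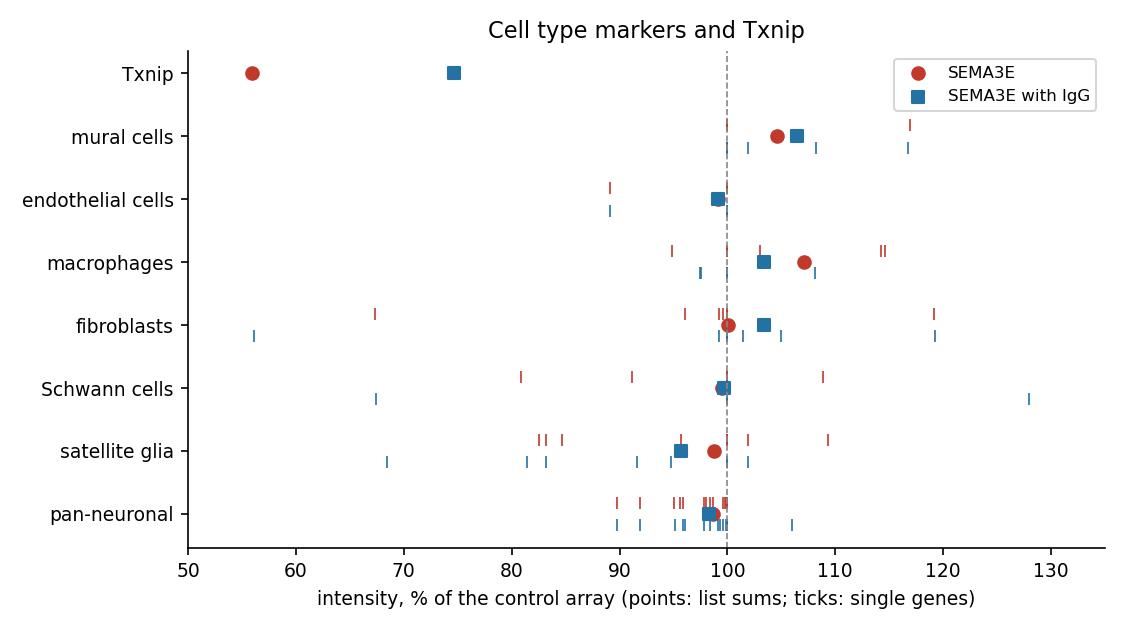
The intensity on the SEMA3E array (red) and on the array with SEMA3E and IgG (blue) is given as a percentage of the control array, with large points for the sum of a cell type's markers above background and for Txnip, and ticks for single markers. The sums lie between 95.7% and 107.1%, single markers between 56.1% and 128%, and Txnip at 55.9% and 74.7%.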

How the data were processed

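The values are the intensities deposited by the authors, 1 per probe set and array, on a linear scale from 6.12 to 496402 with array medians of 44.5 to 45. Per the submitters' processing notes they were made in Affymetrix Expression Console. The sources used here do not give its version, how probes were summarised, the normalization or the build. RNA was labelled with biotin by the GeneChip WT Pico kit, per the labels' protocols.

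From these, log2(intensity + 1) was taken with no further scaling. The platform annotation gave a single symbol to 30604 of 65956 probe sets, several to 2146 and none to 33206, and 827 symbols were updated by gene number with RefSeq (GRCm38.p6). For 355 genes with several probe sets the brightest was used. List genes without a single-symbol probe set are not analysed here.

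The members and the 24 lists were chosen with earlier results of these data known. Named are all members, list genes past a ratio of 5 to 4 and up to 3 others furthest from 0 in each list, and the 8 genes nearest to Txnip. The differences and scalings were tested on simulated data: of 200 genes given a known shift among 17653, 200 kept its sign in SEMA3E against control. The shift given was about the size of the Txnip difference and far above the simulated noise, so its sign could hardly be lost. Unlike the deposited values, the simulated ones were not identical between arrays. The simulation checks the calculation and says nothing of small differences. A comparison of proteins was not run. Versions were numpy 2.4.6, pandas 2.3.3, statsmodels 0.14.6 and matplotlib 3.10.9, under Python 3.11.15.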

Additional observations from a re-analysis of the deposited data

How the results depend on the processing

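The values were recomputed after median centring, cyclic loess and quantile normalization, with an offset of 16 or none before the logarithm, and with the mean of a gene's probe sets. Txnip kept its direction and moved by less than the spread over genes: SEMA3E against control lay between −0.84 and −0.82, IgG against SEMA3E between 0.42 and 0.43, and IgG against control between −0.42 and −0.39. These settings had little room to move it, since Txnip has a single probe set and most genes held identical values on all arrays. Txnip was picked for these differences, so nothing is read from this stability. With floors at percentile 90 or 99 or with none, the 25 genes that stepped down and up past a ratio of 5 to 4 became 25, 20 and 26, and with the offset of 16 they became 22. After quantile normalization the count of members lower with IgG than with SEMA3E alone was 2 in place of 1, since Slc2a3, with a difference of 0.03 as deposited, crossed 0 there. Among the list counts 9 others moved by over 1.5 times, all of them counts of lower genes after median centring or quantile normalization: lower with SEMA3E in the sugar-sensing list, and lower with IgG against control in that list and in those of arrestins, insulin signalling and the tricarboxylic acid cycle. No called difference was reversed. No paired analysis was possible because each medium has 1 array, and no array could be left out for the same reason.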
